A study of Populus tomentosa with 9 samples.

Results

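The genes described here are the auxin signalling, transport and response genes of suspension-cultured Populus tomentosa cells, a poplar grown in China. They were chosen as the genes whose protein description, in the authors' deposited comparison tables, contained the words AUX/IAA, auxin or GH3. The rule found 34 genes among the 41624 genes with a deposited expression value. By their descriptions 16 were AUX/IAA genes, 2 were auxin response factors, 6 were GH3 genes, 4 were SAUR-type genes and 6 were auxin efflux carriers. The response factor POPTR_0018s14300 also carries the AUX/IAA wording, so 17 genes hold that wording in all. Descriptions exist for those genes alone that the authors listed as different between a transgenic line and the wild type within some treatment. The difference between lines therefore selected these genes, and it is given below as a description without a test.

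RNA was sequenced from 9 cultures, 1 library for each pairing of 3 cell lines with 3 treatments, without replication. The cells were wild type, or from a line labelled antisense or one labelled overexpression. The labels name neither the targeted gene nor a promoter, so the target could not be checked, and each genotype is a single line. All cells were grown in the dark at 25 °C and collected 5 days after subculturing, either untreated (control), or after 3 h with 10 mM H2O2 or 1 mM ASA (not spelled out by the labels). No library is labelled as a mock-treated 3 h control. Effects of treatment and of time or handling therefore cannot be told apart. By organism and source these are poplar cells in suspension, yet the extraction text in the labels names Arabidopsis stems. Among the listed genes, the 2 with photosynthesis wording summed to 6.70 to 47.3 FPKM per library and the 14 with cellulose synthase, laccase or fasciclin wording to 423 to 844 FPKM, so neither group was absent. In bulk RNA, fewer cells of a kind and less RNA per cell cannot be told apart.

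Auxin acts in plants largely through transcription. In Arabidopsis, AUX/IAA proteins repress auxin response factors, and auxin promotes the binding of AUX/IAA proteins to F-box receptors, after which they are degraded and the response factors act. AUX/IAA, GH3 and SAUR genes are themselves classic auxin-induced genes. GH3 enzymes join amino acids to auxin or related acids, SAUR proteins are small proteins tied to cell expansion, and efflux carriers move auxin across membranes.

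Levels are in FPKM, fragments scaled to gene length and to the reads of the library, as the authors deposited them. Between 17137093 reads (antisense control) and 19667885 reads (overexpression control) stood behind the values, so 3 reads in a gene of 1 kb were worth 0.153 to 0.175 FPKM. All 34 genes had a mean of at least 1 FPKM, 31 reached 1 FPKM in every library, and 284 of their 306 values rested on at least 100 reads. Differences are on the log2(FPKM + 1) scale, and "2-fold" means at least 1 unit on it where the higher library reaches 1 FPKM. The range over the 9 libraries had a median of 2.25 units for these genes, against 1.99 for the other 2941 listed genes whose mean reached 1 FPKM and 1.02 for all 23350 genes at that level.

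The antisense libraries labelled H2O2 and ASA went against their labels when set beside the other lines. Over the 23316 genes other than the auxin genes, the difference between the H2O2 and ASA libraries correlated at -0.837 between the wild type and the antisense line, at 0.62 between the wild type and the overexpression line, and at -0.576 between the transgenic lines (Pearson, across genes, which share libraries and are no replicates). For the auxin genes, 32 of 34 had opposite signs in the wild type and the antisense line, and 26 of 34 had the same sign in the wild type and the overexpression line. All 9 auxin genes that differed 2-fold between H2O2 and ASA in both the wild type and the antisense line did so in opposite directions. A difference between a line and the wild type within a treatment chose these genes. That choice can favour opposite movement, by an amount that was not tested, so nothing is read from the counts of auxin genes. The libraries are called here by their labels. Counts of auxin genes above or below the wild type in all treatments are also given without the treated antisense libraries. So are the counts of auxin genes and their medians in the treatment fit. Other results over several libraries, such as fitted differences of single genes, ranges and counts of lowest libraries, are given with them only. The overexpression H2O2 and ASA libraries also stood apart from the rest, at 87.4 and 70.6 on a first principal component (40.1% of the variance) on which the other 7 lay between -34.3 and -6.59. Their medians over all tested genes lay 0.16 and 0.22 log2 units below the control of the line, so the higher values given for them below are larger, and the lower ones smaller, relative to that shift.

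**Figure D1:**
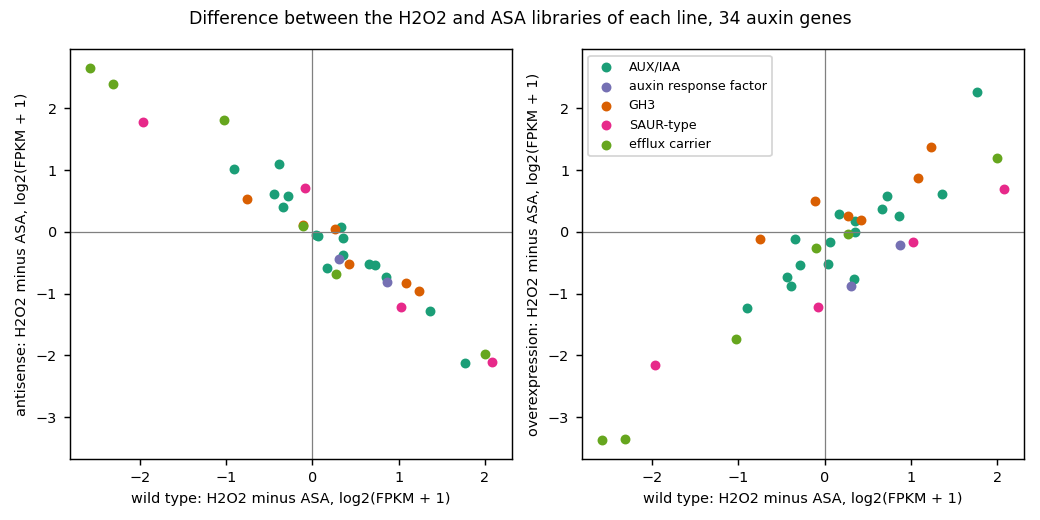
Each point is 1 of the 34 auxin genes, coloured by class. The x axis is the log2(FPKM + 1) difference between the H2O2 and ASA libraries of the wild type, the y axis the same difference in the antisense (left) or overexpression (right) line. In the antisense panel 32 points lie in the quadrants of opposite sign, in the overexpression panel 8.

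Transcripts of the listed AUX/IAA genes were low in the untreated cells of both transgenic lines. Summed over the 16 genes, they stood at 1824 FPKM in the wild type control, 958 FPKM in the antisense control and 644 FPKM in the overexpression control. With H2O2 and ASA, the wild type sums were 1684 and 1479 FPKM, the antisense sums 1021 and 1107 FPKM and the overexpression sums 1640 and 1688 FPKM. The 3 antisense sums thus lay below all 3 wild type sums. In the overexpression line only the control lay below the wild type range, and the treated libraries were at 2.55 and 2.62 times their control. In the untreated cells, 13 of the 16 genes lay below the wild type in the antisense line and 15 in the overexpression line. Of all genes, 13693 of 23641 and 13930 of 23940 lay above the wild type. The authors had listed 9 and 10 of the 16 as lower in these controls, and such listing chose the genes. AUX/IAA genes that they did not list carry no description and are absent from the sums. The summed level of the 2 genes with photosynthesis wording followed the order of the AUX/IAA sums in the controls. It was 42.4 FPKM in the wild type, 20.7 FPKM in the antisense line and 10.9 FPKM in the overexpression line. The orders differed with H2O2 and with ASA, where the overexpression line was at 6.70 and 20.4 FPKM for these 2 genes. Their part in the AUX/IAA levels was not tested. The 14 stem and wood genes summed to 844, 693 and 709 FPKM in the 3 controls, in the same order of lines. Both groups were taken from genes listed as different from the wild type, so nothing is read from their order. POPTR_0001s17780 and its neighbour by identifier POPTR_0001s17770 together made up between 30.8% and 47.6% of the sum in every library.

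**Figure D2:**
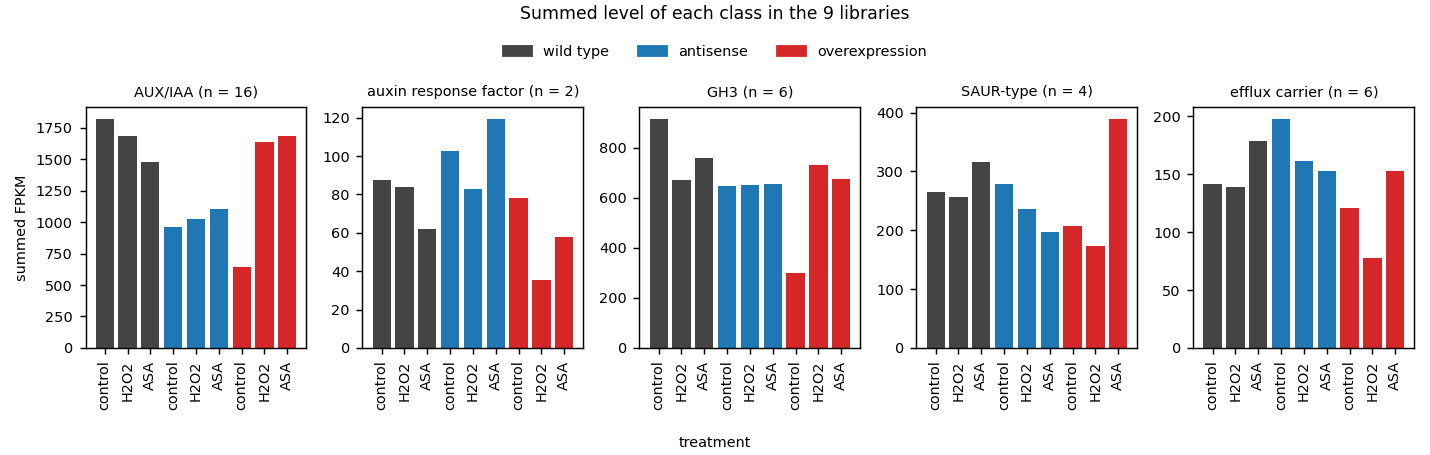
Bars give the summed FPKM of each class (y axis, from 0, with its own scale per panel) in each of the 9 libraries (x axis, treatment), coloured by line, with 1 library per bar and no error. The AUX/IAA and GH3 sums of the overexpression control, 644 and 300.5 FPKM, are the lowest of their panels.

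POPTR_0005s23980 had the widest range of the 34 genes, 5.04 log2 units. It stood at 39.8, 42.8 and 33.3 FPKM in the wild type (here and below in the order control, H2O2, ASA), at 7.51, 4.59 and 5.02 FPKM in the antisense line and at 0.332, 9.83 and 8.56 FPKM in the overexpression line. All 6 transgenic libraries lay below the 3 wild type libraries, and the overexpression control, with 10 reads, was the lowest. The ratio of the overexpression H2O2 library to its control was 29.6, with an exact 95% interval of 15.9 to 62.4 that covers counting error only. This was the only auxin gene in all 6 of the authors' comparison tables, where its deposited log2 folds ran from -7.04 in the overexpression control to -1.93 with ASA in the same line. Its profile over the 9 libraries was closest to that of the AUX/IAA gene POPTR_0003s05560 (r = 0.962 on the log2 scale), which is given next.

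POPTR_0003s05560 was at 118, 118 and 74.2 FPKM in the wild type, at 57.4, 32.8 and 47.6 FPKM in the antisense line and at 19.4, 65.7 and 50.6 FPKM in the overexpression line. Here too every transgenic library was below every wild type library. POPTR_0010s08880 was at 71.3, 29.8 and 28.5 FPKM in the wild type, 19.8, 10.8 and 11.3 FPKM in the antisense line and 8.14, 4.23 and 4.86 FPKM in the overexpression line. Within each line its control was the highest library, and the lines did not overlap, in the order wild type, antisense, overexpression. In the overexpression line its log2 difference to control was -0.80 with H2O2 and -0.64 with ASA, where most AUX/IAA genes lay above their control. Its neighbour by identifier, POPTR_0010s08890, kept another profile (r = 0.207 over the 9 libraries), and the ratio of POPTR_0010s08880 to it was 0.907 in the wild type control and 0.0636 in the overexpression H2O2 library.

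POPTR_0001s17780, the AUX/IAA gene with the highest mean, was at 399.6, 425 and 257 FPKM in the wild type, 173, 137 and 199 FPKM in the antisense line and 108, 537 and 358 FPKM in the overexpression line. The overexpression line thus held both its lowest and its highest library. POPTR_0005s05550 was at 111, 76.2 and 100.1 FPKM in the wild type, 65.6, 75.0 and 34.6 FPKM in the antisense line and 35.2, 91.2 and 169 FPKM in the overexpression line. Its lowest values, in the antisense ASA library and the overexpression control, were close to each other, and its highest was the overexpression ASA library. POPTR_0014s10730 was at 5.10, 25.6 and 6.83 FPKM in the wild type, 8.64, 9.54 and 45.0 FPKM in the antisense line and 8.25, 29.6 and 5.39 FPKM in the overexpression line. It was high in the wild type and overexpression libraries labelled H2O2 and in the antisense library labelled ASA, and between 5.10 and 9.54 FPKM in the other 6.

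The other 10 AUX/IAA genes ranged from 11.8 to 272 FPKM, with ranges of 1.16 to 2.24 log2 units. Over the whole class, 10 of 16 genes were lower in the antisense line than in the wild type in each of the 3 treatments and none was higher in all 3. Over all genes with a mean of 1 FPKM or more these shares were 11.3% and 21.1%, and over the other listed genes 19.2% and 13.4%. In the control alone, without the treated antisense libraries, 13 of 16 were lower and 3 higher. For the overexpression line, 6 of 16 were lower and 0 higher in all 3 treatments, beside 21.8% and 24.1% of all genes and 32.9% and 21.6% of the other listed genes. This contrast chose the genes, so nothing is read from these shares. The overexpression control was the lowest of the 9 libraries for 7 of the 16. That count was not made over all genes, so nothing is read from it either. Among next-door identifiers the ratios moved as well, from 0.449 to 1.48 for POPTR_0001s17770 over POPTR_0001s17780 and from 0.954 to 3.40 for POPTR_0008s16100 over POPTR_0008s16110, so these copies did not keep a fixed ratio. POPTR_0005s05550 and POPTR_0005s05560 stayed closer, at 0.576 to 1.12. Reads shared between near-identical copies cannot be told apart in the deposited values.

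**Figure D3:**
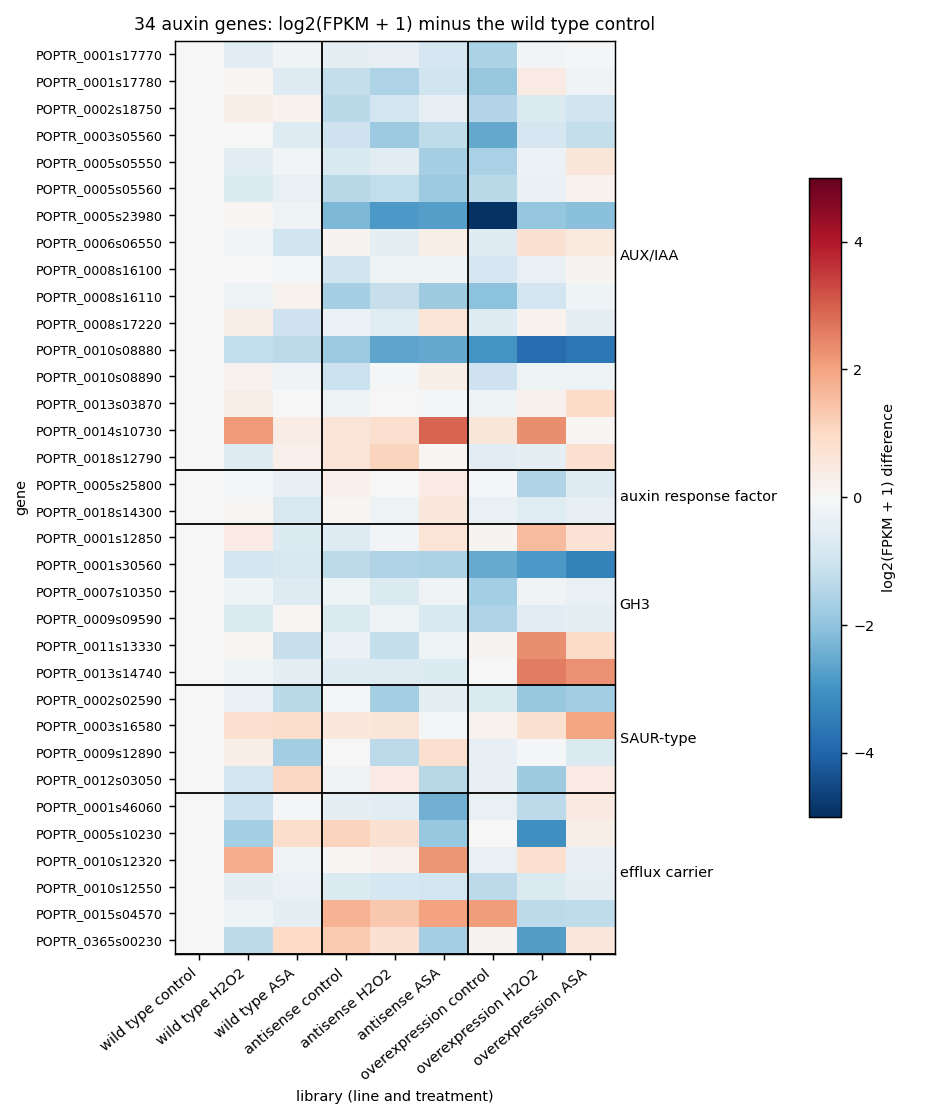
Each row is 1 of the 34 auxin genes, grouped by class, and each column 1 library. Colour gives the log2(FPKM + 1) difference from the wild type control, blue for lower and red for higher. The overexpression control column is blue for most AUX/IAA genes, down to -4.94 for POPTR_0005s23980.

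The auxin response factors are the DNA-binding partners that AUX/IAA proteins repress. Their ranges were 1.91 log2 units for POPTR_0005s25800 and 1.38 for POPTR_0018s14300. POPTR_0005s25800 was at 68.0, 63.5 and 51.2 FPKM in the wild type, 81.7, 66.6 and 90.2 FPKM in the antisense line and 63.8, 23.2 and 43.5 FPKM in the overexpression line. Its low point was the overexpression H2O2 library, at a log2 difference of -1.42 to its control. POPTR_0018s14300 was at 19.4, 20.3 and 10.7 FPKM in the wild type, 20.7, 16.3 and 29.4 FPKM in the antisense line and 14.6, 12.2 and 14.3 FPKM in the overexpression line. For both genes the antisense ASA library was the highest.

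The GH3 sum, like the AUX/IAA sum, was lowest in the overexpression control. Of the 6 genes, the authors had listed 3 as lower there, a difference that helped to choose them. The sum was 917, 672 and 758 FPKM in the wild type, 647, 653 and 654 FPKM in the antisense line and 300.5, 732 and 677 FPKM in the overexpression line. POPTR_0007s10350 and POPTR_0009s09590 together gave between 89.9% and 96.0% of it. POPTR_0007s10350 was at 409.5, 357 and 265 FPKM in the wild type, 351, 250.2 and 359 FPKM in the antisense line and 125, 361 and 315 FPKM in the overexpression line. POPTR_0009s09590 was at 446, 273 and 459.9 FPKM in the wild type, 268, 377 and 261 FPKM in the antisense line and 152, 298 and 325 FPKM in the overexpression line. In both genes the overexpression control was the lowest of the 9 libraries, and the treated libraries of that line lay inside the range of the other lines.

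The 4 less abundant GH3 genes split into different profiles. POPTR_0013s14740 was at 0.600, 0.380 and 0.147 FPKM in the wild type (21, 13 and 5 reads). In the antisense line it had 1, 1 and 0 reads, where 3 reads would be worth 0.0876 to 0.0958 FPKM. In the overexpression line it was at 0.612 FPKM in the control but at 8.32 FPKM with H2O2 and 6.79 FPKM with ASA (22, 295 and 231 reads). The treated libraries were 13.6 and 11.1 times the control of the line, with exact 95% intervals of 8.81 to 22.0 and 7.15 to 18.1 (counting error only). The gene passed 1 FPKM in no other library.

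POPTR_0011s13330 was at 4.98, 5.32 and 1.69 FPKM in the wild type, 3.79, 1.59 and 4.04 FPKM in the antisense line and 5.59, 29.1 and 10.6 FPKM in the overexpression line. POPTR_0001s12850 was at 9.56, 13.1 and 5.65 FPKM in the wild type, 5.70, 8.50 and 15.9 FPKM in the antisense line and 10.7, 30.8 and 16.3 FPKM in the overexpression line. For both, the overexpression H2O2 library was the highest, followed by the overexpression ASA library, although for POPTR_0001s12850 the antisense ASA library came close to the latter. POPTR_0001s30560 went the other way, at 46.5, 23.9 and 25.9 FPKM in the wild type, 18.0, 15.9 and 14.7 FPKM in the antisense line and 7.36, 5.46 and 3.57 FPKM in the overexpression line. Its lines did not overlap, in the order wild type, antisense, overexpression. This profile was closest to that of the AUX/IAA gene POPTR_0010s08880 (r = 0.958 over the 9 libraries), and the ratio of the 2 genes stayed between 0.652 and 1.48.

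**Figure D4:**
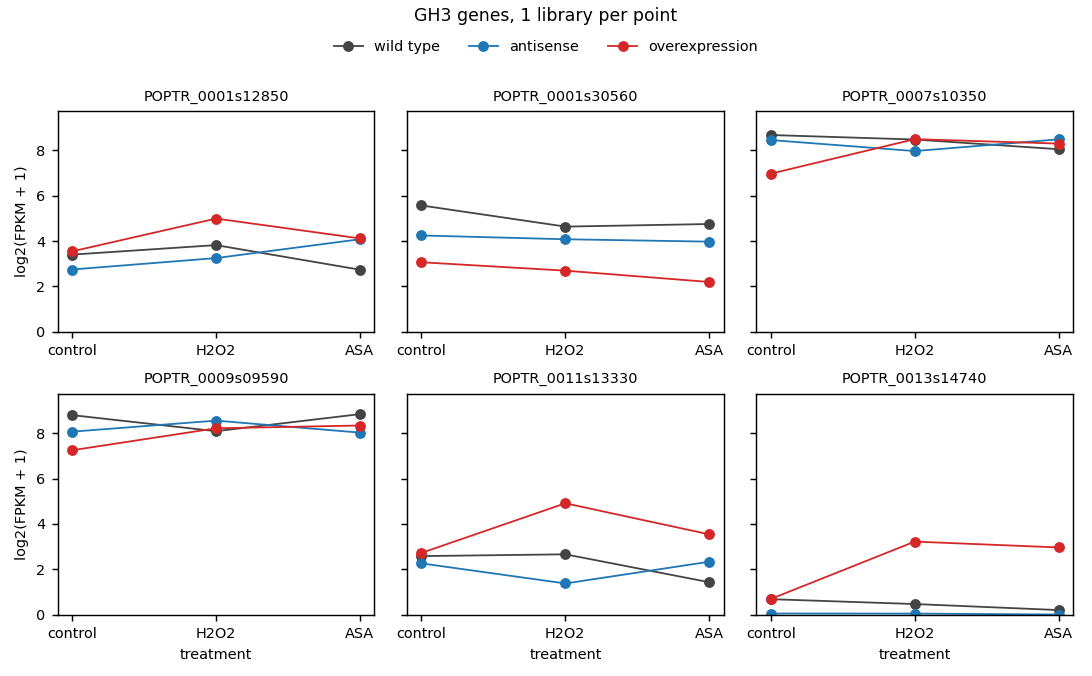
Each panel is a GH3 gene, with log2(FPKM + 1) on the y axis and the treatment on the x axis. Each point is 1 library, joined by line. POPTR_0013s14740 and POPTR_0011s13330 are highest in the treated overexpression libraries, and POPTR_0001s30560 is lowest in that line throughout.

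The SAUR-type genes had no common profile. POPTR_0003s16580 was at 62.6, 109 and 116 FPKM in the wild type, 90.0, 96.5 and 58.8 FPKM in the antisense line and 70.4, 107 and 249 FPKM in the overexpression line, with the overexpression ASA library far above the others. POPTR_0002s02590 was at 112, 89.1 and 43.4 FPKM in the wild type, 106, 35.2 and 82.8 FPKM in the antisense line and 69.2, 29.6 and 33.2 FPKM in the overexpression line. Every treated library of this gene lay below the control of its line.

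POPTR_0012s03050 and POPTR_0009s12890 differed mainly between H2O2 and ASA, in opposite directions. POPTR_0012s03050 was at 74.3, 38.2 and 152 FPKM in the wild type, 66.6, 99.3 and 28.1 FPKM in the antisense line and 56.2, 21.3 and 98.7 FPKM in the overexpression line. It was higher with ASA than with H2O2 in the wild type and overexpression lines and lower in the antisense line. POPTR_0009s12890 was at 15.8, 20.2 and 4.0 FPKM in the wild type, 15.6, 5.70 and 27.9 FPKM in the antisense line and 11.6, 15.3 and 9.10 FPKM in the overexpression line. Here ASA was the lower treatment in the wild type and overexpression lines and the higher in the antisense line.

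The efflux carriers held the largest differences between the H2O2 and ASA libraries. POPTR_0005s10230 was at 33.2, 9.52 and 61.8 FPKM in the wild type, 73.0, 57.0 and 8.22 FPKM in the antisense line and 34.1, 3.11 and 41.4 FPKM in the overexpression line. Its low libraries were those labelled H2O2 in the wild type and overexpression lines and the one labelled ASA in the antisense line. POPTR_0365s00230 ran almost in parallel (r = 0.997), at 19.9, 7.42 and 40.7 FPKM in the wild type, 50.8, 34.1 and 5.63 FPKM in the antisense line and 22.1, 2.0 and 29.5 FPKM in the overexpression line. The ratio of the first gene to the second stayed between 1.28 and 1.67, and whether reads are shared between the pair was not tested.

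POPTR_0001s46060 had the same low libraries, at 28.3, 12.8 and 27.0 FPKM in the wild type, 20.2, 18.6 and 4.60 FPKM in the antisense line and 21.8, 10.9 and 38.8 FPKM in the overexpression line. POPTR_0010s12320 was the reverse, at 22.1, 81.3 and 19.6 FPKM in the wild type, 22.7, 25.9 and 105 FPKM in the antisense line and 16.9, 39.4 and 16.6 FPKM in the overexpression line. Its high libraries were the ones in which the 3 carriers above were low. POPTR_0010s12550 was the steadiest of the class, at 36.1, 26.1 and 28.1 FPKM in the wild type, 22.2, 19.1 and 17.9 FPKM in the antisense line and 14.1, 21.7 and 26.2 FPKM in the overexpression line.

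POPTR_0015s04570 was at 2.04, 1.65 and 1.18 FPKM in the wild type and at 9.05, 6.70 and 11.3 FPKM in the antisense line. In the overexpression line it was at 12.03 FPKM in the control but at 0.237 and 0.272 FPKM with H2O2 and ASA, from 10 and 11 reads. The control of that line was its highest library and the treated libraries of the same line its lowest, at log2 differences of -3.40 and -3.36. All 3 antisense libraries lay above all 3 wild type libraries.

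**Figure D5:**
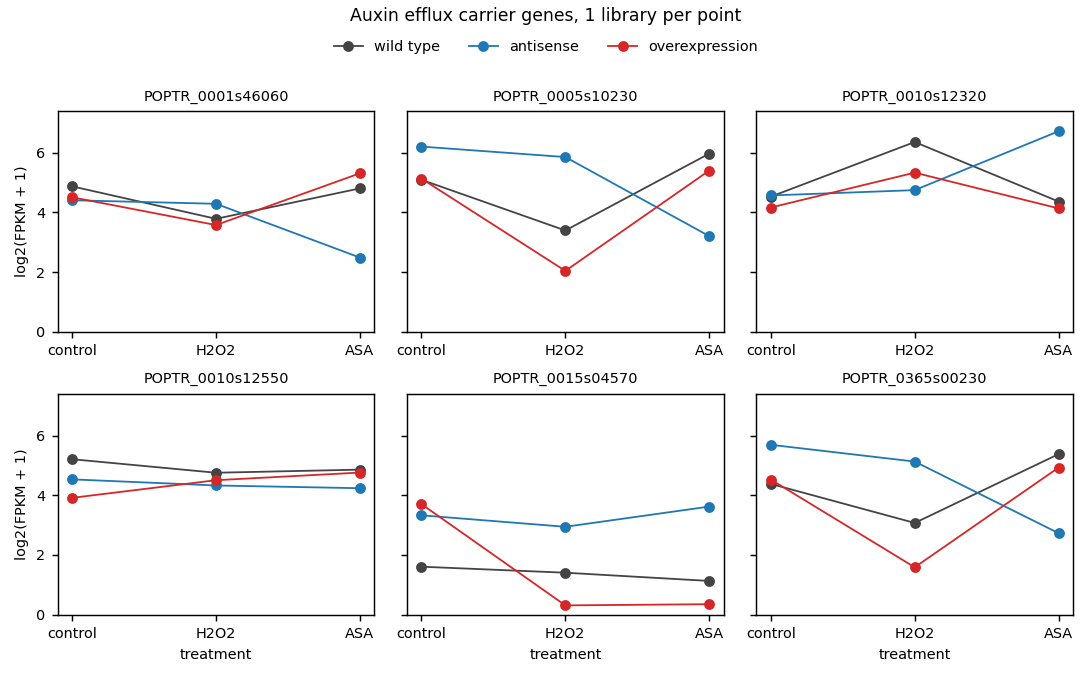
Each panel is an efflux carrier gene, with log2(FPKM + 1) on the y axis and the treatment on the x axis. Each point is 1 library, joined by line. POPTR_0005s10230 and POPTR_0365s00230 dip with H2O2 in the wild type and overexpression lines and with ASA in the antisense line.

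The difference between lines is the one on which the genes were chosen. In the authors' deposited tables, which hold absolute log2 folds from 1.00 and q-values up to 0.00498, 13 of the 34 genes stood in 1 table, 11 in 2 tables, 6 in 3, 3 in 4 and 1 in all 6. Just inside the fold limit were POPTR_0013s03870 at 1.04 (overexpression, ASA), POPTR_0009s09590 at -1.04 (antisense, ASA) and POPTR_0005s10230 at 1.05 (antisense, control). Genes outside the limits carry no description, so the values just outside are not analysed here.

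For untreated cells, the authors' tables listed 2 auxin genes as higher and 10 as lower in the antisense line, beside 0.235% and 0.585% of all genes with reads. In the untreated overexpression line they listed 1 as higher and 14 as lower, beside 0.987% and 1.80% of all genes. Of the lower genes, 9 in the antisense line and 10 in the overexpression line were AUX/IAA genes. Of the others, 1 in the antisense line was a GH3 gene, and the overexpression line had 3 GH3 genes and an efflux carrier. Nothing is read from these shares, since the listing chose the genes.

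With H2O2 the tables listed 4 auxin genes as higher and 6 as lower in the antisense line (1.42% and 0.732% of all genes), and 3 as higher and 5 as lower in the overexpression line (1.38% and 1.97%). With ASA they listed 7 as higher and 9 as lower in the antisense line (0.995% and 3.53%), and 6 as higher and 4 as lower in the overexpression line (1.51% and 2.44%). The 3 higher genes of the overexpression H2O2 table were all GH3 genes, and 3 of the 6 higher genes of its ASA table were GH3 genes.

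Few genes kept a 2-fold difference to the wild type in 1 direction over all 3 treatments. In the antisense line 1 of 33 genes with enough signal was higher, the efflux carrier POPTR_0015s04570, and 2 were lower, POPTR_0005s23980 and POPTR_0010s08880. The shares over all genes were 0.135% and 0.521%. Leaving out the treated antisense libraries, that is in the control alone, 3 of 33 were higher and 10 lower, beside 2.39% and 2.15% of all genes. In the overexpression line none was higher and 4 were lower, POPTR_0001s30560, POPTR_0002s18750, POPTR_0005s23980 and POPTR_0010s08880, beside 0.736% and 1.57% of all genes. The last 2 were thus lower in both transgenic lines, which were compared with the same wild type libraries.

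Treatment contrasts were not used to choose the genes, although the same libraries entered both kinds of comparison. The fit took line and treatment as additive factors over the 9 libraries, so a treatment effect was judged against its scatter over the 3 lines. Choosing genes by a line difference within a treatment can widen that scatter, so the test is not free of the selection. With limma and Benjamini-Hochberg adjustment over 23350 genes, 0 of the 34 auxin genes passed an adjusted p of 0.05 for H2O2 against control, where 1 gene in all (0.00428%) did. The number was also 0 for ASA against control and for H2O2 against ASA, where no gene passed (0.0% and 0.0%). At an unadjusted p under 0.05, limma gave 2, 6 and 0 auxin genes for these 3 contrasts, beside 1535, 1325 and 84 of all genes. Limma's voom on the recovered reads also called 0 in each, with 4, 6 and 0 at the unadjusted level, beside 1572, 1298 and 60 of all genes.

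The median auxin gene differed by 0.28 log2 units with H2O2 and 0.24 with ASA, against -0.01 and -0.05 for all tested genes. These medians rested on single libraries. Without the overexpression control they were -0.27 and -0.26, and 9 and 13 of the 34 genes lay above 0 in place of 21 and 23. Without the overexpression ASA library the ASA median was -0.11, and without the overexpression H2O2 library the H2O2 median was 0.06. Without both treated antisense libraries, 0 auxin genes passed in each contrast and the medians were 0.39 and 0.35, with 10, 7 and 10 genes at an unadjusted p under 0.05. That is 29.4%, 20.6% and 29.4% of them, beside 13.6%, 8.84% and 14.0% of all genes and 30.2%, 17.6% and 32.1% of the listed genes in the same fit.

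The auxin gene closest to the threshold was the AUX/IAA gene POPTR_0010s08880. It was lower with H2O2 in 3 of 3 lines, by a fitted log2 difference of -0.95 ± 0.18 (SE; limma adjusted p = 0.475), and lower with ASA in 3 of 3 lines, by -0.90 ± 0.18 (limma adjusted p = 0.546). The SAUR-type gene POPTR_0002s02590 was next for H2O2, at -1.03 ± 0.37 (limma adjusted p = 0.709), and it too was lower in 3 of 3 lines. The GH3 gene POPTR_0001s30560 was at -0.65 ± 0.21 for ASA (limma adjusted p = 0.758), lower in 3 of 3 lines. None of these differences passed the test.

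Within single lines there is no test, and the auxin genes were counted by fold. In the wild type with H2O2, 2 of 33 were 2-fold higher, POPTR_0014s10730 (2.12) and POPTR_0010s12320 (1.83), beside 3.46% of all genes and 6.94% of the other listed genes. On the lower side there were 4 of 33, the efflux carriers POPTR_0005s10230 (-1.70), POPTR_0365s00230 (-1.31) and POPTR_0001s46060 (-1.09) and the AUX/IAA gene POPTR_0010s08880 (-1.23), beside 3.21% and 14.4%. In the wild type with ASA, 1 of 33 was higher, POPTR_0012s03050 (1.02), beside 2.75% and 8.21%. With ASA 6 were lower, among them POPTR_0009s12890 (-1.75), POPTR_0002s02590 (-1.35) and POPTR_0010s08880 (-1.30), beside 1.80% and 5.23%. The wild type medians over the auxin genes were -0.15 with H2O2 and -0.25 with ASA, against 0.09 and -0.03 for all genes.

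In the antisense line, the library labelled H2O2 held few differences. There 1 of 33 auxin genes was 2-fold higher than the control, POPTR_0010s08890 (1.01), beside 1.14% of all and 3.11% of other listed genes, and 2 were lower, both SAUR-type, beside 1.22% and 3.93%. The antisense library labelled ASA had 4 higher and 4 lower of 33. The higher genes were POPTR_0014s10730 (2.25), POPTR_0010s12320 (2.15), POPTR_0010s08890 (1.38) and POPTR_0001s12850 (1.34), beside 3.12% and 6.90%. The lower genes were POPTR_0005s10230 (-3.00), POPTR_0365s00230 (-2.97), POPTR_0001s46060 (-1.92) and POPTR_0012s03050 (-1.22), beside 4.93% and 22.4%. Of these, POPTR_0014s10730 and the first 3 efflux carriers named lower were also past 2-fold, in the same direction, in the wild type library labelled H2O2, as was POPTR_0010s12320.

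The overexpression line had the most differences between treated and control cells. With H2O2, 13 of 34 auxin genes were 2-fold higher, beside 5.65% of all genes and 13.4% of other listed genes, and 6 were lower, beside 9.52% and 26.5%. With ASA, 15 of 34 were higher, beside 4.87% and 14.6%, and 2 were lower, beside 8.85% and 21.0%. The medians were 0.76 and 0.81 over the auxin genes, against -0.12 and -0.17 over all genes and -0.29 and -0.04 over the other listed genes.

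By class the counts were as follows. With H2O2, 8 AUX/IAA and 4 GH3 genes of the overexpression line were 2-fold higher and none lower, with class medians of 1.04 and 1.49. On the lower side stood 3 efflux carriers, 2 SAUR-type genes and the response factor POPTR_0005s25800, while 1 efflux carrier, POPTR_0010s12320, was higher (1.17). With ASA, 11 AUX/IAA and 3 GH3 genes were 2-fold higher and none lower, with medians of 1.28 and 0.96, and the SAUR-type gene POPTR_0003s16580 was also higher (1.81). With ASA 1 SAUR-type gene and 1 efflux carrier were 2-fold lower, and the medians of these classes were 0.24 and 0.34. The AUX/IAA gene POPTR_0005s23980 was the farthest above control with either treatment, at 3.02 and 2.84, and the efflux carrier POPTR_0015s04570 the farthest below.

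Both comparisons share the overexpression control, a library that had also helped to choose the genes. That control was the lowest library for 10 of the 34 genes. The same count was not made over all genes, so nothing is read from it. Of the 14 auxin genes the authors listed as lower in the overexpression control, 7 were 2-fold higher with H2O2 and 9 with ASA, which is 50.0% and 64.3%. Among the other genes listed as lower in that control, the shares were 20.6% and 25.8%. Of the 20 auxin genes not so listed, 6 were higher with H2O2 and 6 with ASA, beside 11.8% and 12.0% of the other listed genes of that kind. Some of the 20 were chosen through the treated overexpression libraries, among them POPTR_0013s14740, which the authors listed as higher with H2O2 and with ASA. The remainder is thus not free of the selection. This split was made after the values were seen, and no test stands behind it.

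The other steps of the auxin pathway were looked for among the listed genes by the wording of their descriptions. None of these lists is specific to auxin, and how many of their genes act on it is not known from the files. Their counts in the overexpression line stand beside 5.65% (H2O2) and 4.87% (ASA) of all genes 2-fold higher, and 9.52% and 8.85% lower. For the other listed genes these shares were 13.4% and 14.6% higher, and 26.5% and 21.0% lower. With 4 to 10 genes a list, the lists are given as counts only. In the overexpression line, 2 of 4 genes with monooxygenase, alliinase or peptidase M20 wording, which in Arabidopsis includes enzymes of auxin synthesis and release from conjugates, were 2-fold higher with H2O2 and 3 of 4 with ASA. Their medians were 0.91 and 1.27, and none was lower. Of 8 amino acid transporters, the family that holds the auxin influx carriers, 4 were higher and 1 lower with H2O2, and 3 were higher and 0 lower with ASA.

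Of 8 genes with F-box and leucine-rich repeat or cullin-repeat wording, 1 was higher and 1 lower with H2O2, and 1 was higher and 3 lower with ASA in the overexpression line. In this list, 3 genes are described as Exo70 exocyst subunits, which are not auxin receptors. None of 4 other B3-domain genes and 2 of 10 lateral organ boundaries genes were 2-fold higher with either treatment, and 0 and 1 were lower with H2O2 and 0 and 3 with ASA. The B3-domain genes POPTR_0008s11600 and POPTR_0010s13930 also carry ERF DNA-binding wording, and none of the 4 is described as an auxin response factor. In the antisense library labelled ASA, 3 of the 4 B3-domain genes were 2-fold lower than the control, with a median of -1.66, beside 4.93% of all genes and 22.4% of other listed genes. In the wild type with H2O2, 2 of 4 were, with a median of -1.05, beside 3.21% and 14.4%.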

How the data were processed

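The 9 libraries were placed in their groups by their titles. Per the submitters' processing notes, Bowtie2 2.2.3, TopHat, TopHat2 2.0.12 and HTSeq 0.6.1 were used, and the genome build is not given in the sources used here. Deposited by the authors were a table of FPKM values and 6 tables of line against wild type, each with log2 fold changes and q-values and limited to genes past their thresholds. The sources used here do not say how those tests were made. The authors' descriptions were matched by word. None of the identifiers matched the table of gene names at hand, so no gene symbol or coordinate is given.

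The value of 1 read was recovered from the FPKM values. This gave whole reads for all 33158 genes with a value (100.0%), to a relative tolerance of 1e-09, although the 1546 genes with reads in a single library fix no ratio. Between 0.116% and 0.182% of the reads lay outside the genes in the table. Intervals for ratios of reads are exact 95% intervals and, like the floor of 3 reads, cover counting error only.

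Treatments were tested with limma 3.58.1 (R 4.3.3) on log2(FPKM + 1) for genes whose mean reached 1 FPKM, with line and treatment as factors, 4 residual degrees of freedom and Benjamini-Hochberg adjustment. That scale understates changes of low genes. As no condition was replicated, the residual is the departure of the libraries from additive line and treatment effects. Limma moderated it across genes, with 3.31 prior degrees of freedom. The p-values judge a treatment effect against that departure, and not against variation between replicates. The fit was also run on simulated data with independent noise of capped spread and no differences between lines. That setting is milder than these libraries, so nothing about the real fit is read from it. Other calculations used Python 3.11.15, numpy 2.4.6, pandas 2.3.3, scipy 1.17.1 and matplotlib 3.10.9.

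The genes and lists were chosen with earlier results of these data known. In each class the 6 genes with the widest log2 range were named with all values, and classes of 8 or fewer in full. Other genes named were picked after their values were seen. Alternatives covered the pseudocount, the filter on low values, centring on library medians, voom on recovered reads, each library left out and each treatment left out.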

Additional observations from a re-analysis of the deposited data

Results flagged for a closer look

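In 2 genes the libraries of 2 lines moved in opposite directions by at least 2-fold under the same treatment. Each line has 1 library per condition, so neither difference was tested. The authors had listed both genes for the ASA comparison of these same lines, with log2 folds of -2.67 and 1.56 in the order given below. That listing helped to choose the genes, so nothing is read from their number. The SAUR-type gene POPTR_0012s03050 lay 1.02 log2 units above control with ASA in the wild type and at -1.22 in the antisense line, a difference of 2.24. The antisense value comes from a library whose response ran against its label. The AUX/IAA gene POPTR_0006s06550 lay at -1.01 with ASA in the wild type and at 1.14 in the overexpression line, a difference of -2.15. Its levels were 51.8 and 25.2 FPKM in the wild type control and ASA libraries and 32.5 and 73.0 FPKM in those of the overexpression line.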

How the results depend on the processing

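Line was a factor of the fit, which sets each treated library against the others of its own line. No paired analysis by replicate number was possible because the labels give none. All alternatives to the limma test, each library left out included, called 0 auxin genes in each contrast. At most 2 of all tested genes passed in any of these settings, so the 0 counts say little about stability. Of 107 alternative values, 101 stayed within 1.5 times the reported one, where a shift of exactly 1.5 times counted as within. Those 0 counts are among the 101, so this share is no measure of robustness. The number of genes 2-fold apart from the wild type in 1 direction throughout moved from 3 in the antisense line to 5 without the H2O2 libraries and to 8 without the ASA libraries, and from 4 in the overexpression line to 7 without the control libraries. In the wild type with ASA, the 1 higher gene became 2 with a pseudocount of 0.1 or with values centred on library medians. With that centring the 2 lower genes of the overexpression line with ASA became 1. Fewer treatments to satisfy make the first set of counts larger by construction, and for the others the cause was not tested. Depth limits POPTR_0013s14740 in the antisense line and POPTR_0005s23980 and POPTR_0015s04570 in single overexpression libraries, where at most 11 reads were counted.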
